A study of Mus musculus with 4 samples.

Results

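Livers of sedentary mice injected with amyloid fibrils (group FS) were set against livers of sedentary mice given the vehicle (group VS), gene by gene. Both groups were female mice with the amyloidogenic Apoa2c allele of apolipoprotein A-II, and both were 26 weeks old after an intervention of 16 weeks. The FS mice had received AApoAII fibrils into a tail vein, isolated by the authors from livers with heavy deposits and sonicated, and the VS mice had received phosphate-buffered saline. The labels name the strain AKR/J with an Apoa2c congenic genotype, whereas the study's methods name R1.P1-Apoa2c, with the allele of SAMP1 mice on a SAMR1 background. Livers of 4 mice per group were combined ahead of RNA extraction, so each group is 1 library, no difference has a replicate error, and no test was possible. FS and VS are 2 of the 4 libraries of the series. The other pair, FI (fibrils) and VI (vehicle), came from mice that ran high-intensity interval training, and it is used below to show the same genes in libraries that share none with FS and VS. VI also stands in for VS as a second vehicle library, in comparisons that share FS with the main one and differ in training. Counts were scaled by TMM, a factor that levels library sizes on the bulk of genes, and given as CPM, counts in a library scaled to 1000000 counts. Of 35275 listed genes, 9155 had at least 5 CPM in FS or VS. After 17 skeletal muscle genes were set aside, 9138 genes were counted. A ratio is log2 of FS over VS with 0.5 counts added to each, so that 1 is a 2-fold higher level in FS, and the range in parentheses is its 95% interval from counting error alone.

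AApoAII amyloidosis is a systemic disease of mice in which apolipoprotein A-II, a major HDL protein made by hepatocytes, is deposited outside cells as fibrils, and injected fibrils act as seeds for further deposition. Hepatocytes secrete most plasma proteins, which pass through the endoplasmic reticulum (ER), where chaperones fold them, disulfide isomerases join their cysteines and N-glycans are attached. Misfolded protein in the ER activates the sensors IRE1, PERK and ATF6, whose program, the unfolded protein response (UPR), raises folding capacity and disposal. Inflammatory cytokines, chiefly interleukin 6, make hepatocytes secrete acute phase proteins such as serum amyloid A and fibrinogen.

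The libraries held 23442935 counts (VS) and 28814802 counts (FS), and a count of 0 allows up to 3 counts, or 0.127 CPM in VS and 0.102 CPM in FS. All 8 hepatocyte markers were present, led by albumin (Alb) at 119865 CPM in VS and 132334 CPM in FS. Levels of most genes were close in FS and VS: 8813 genes (96.4%) lay within 2-fold, the median ratio of all counted genes was 0.012, and the middle 50% of genes lay between -0.21 and 0.24. A level more than 2-fold higher in FS was found for 207 genes (2.27% of those counted), and a level more than 2-fold lower for 118 genes (1.29%). These shares of all counted genes stand beside each count of list members beyond 2-fold given below. The higher side also reached further, with 14 genes beyond 8-fold against 1 gene on the lower side. Where the whole counting interval had to lie beyond 2-fold, 127 genes were higher and 75 lower. The genes nearest the threshold had ratios of 1.002 and -1.01. A gene under 5 CPM in FS or in VS was counted only through the other library, where it was higher.

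**Figure D1:**
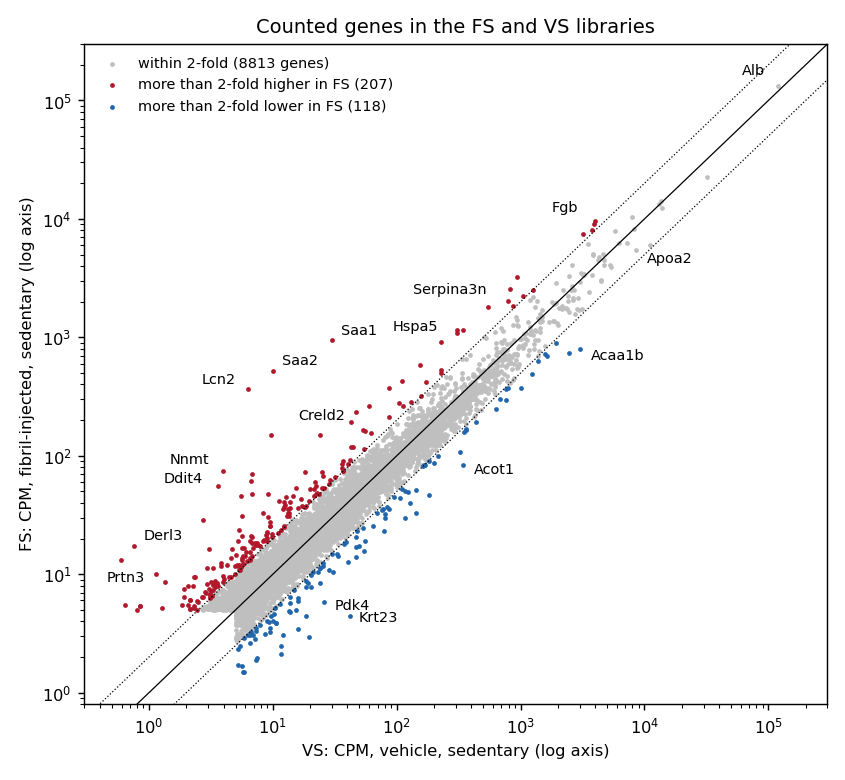
CPM of each counted gene in VS (horizontal axis) and FS (vertical axis), both on log axes, 1 point per gene and 1 library of 4 pooled livers per axis. The solid line marks equal levels and the dotted lines 2-fold, red and blue points are the 207 genes higher and the 118 genes lower in FS by more than 2-fold, and Lcn2, Saa2 and Saa1 lie farthest above the line.

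The pair of trained libraries, which shares neither library with FS and VS, held most of these differences in the same direction. Of the 207 genes higher in FS, 197 were also above VI in FI, a direction that 49.5% of all counted genes had, and 67 were so by more than 2-fold (1.32% of all counted genes). Of the 118 lower genes, 113 were also lower in FI than in VI, 32 of them by more than 2-fold (0.81% of all counted genes). The median FI over VI ratio was 0.704 for the higher genes and -0.69 for the lower genes, against FS over VS medians of 1.298 and -1.25. The genes were chosen by their FS over VS ratios, so smaller ratios in a pair not used for the choice are partly built in. Whether the fibril difference itself was smaller in trained mice was not tested. A single gene, Hspb1, lay beyond 2-fold in opposite directions in the pairs. With VI in place of VS as the control library, 184 genes were higher and 97 lower in FS by more than 2-fold, but not all of them were the same genes. Of the 207 genes higher against VS, 98 were more than 2-fold higher against VI (2.02% of all counted genes), and of the 118 lower genes 44 were so (0.897%). Their median ratios to VI were 0.97 and -0.81. VI itself lay away from VS toward FS, with median VI over VS ratios of 0.43 for the higher and -0.47 for the lower genes, in a comparison that shares VS with the one that chose them.

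Small shifts moved with gene length. In 5 equal groups of genes by length, the median FS over VS ratio went from -0.103 in the shortest genes through -0.035, 0.021 and 0.054 to 0.11 in the longest, and that of FI over VI from -0.11 to 0.072. The part of this gradient in the shifts of long or short gene families was not tested, and with the median of each of 10 length groups subtracted, 200 genes were higher and 116 lower. The 107 listed muscle genes, of which the 17 set aside had reached 5 CPM, summed to 292 CPM in VS against 142 in FS, with 147 in VI and 136 in FI beside them. Of the 17, 9 were more than 2-fold lower in FS and 0 higher. The muscle actin gene Acta1 was at 19.3 CPM in VS, 0.237 CPM in FS, 2.63 CPM in VI and 0 CPM in FI. The part of muscle RNA in VS in the ratios of the genes counted was not tested.

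**Figure D2:**
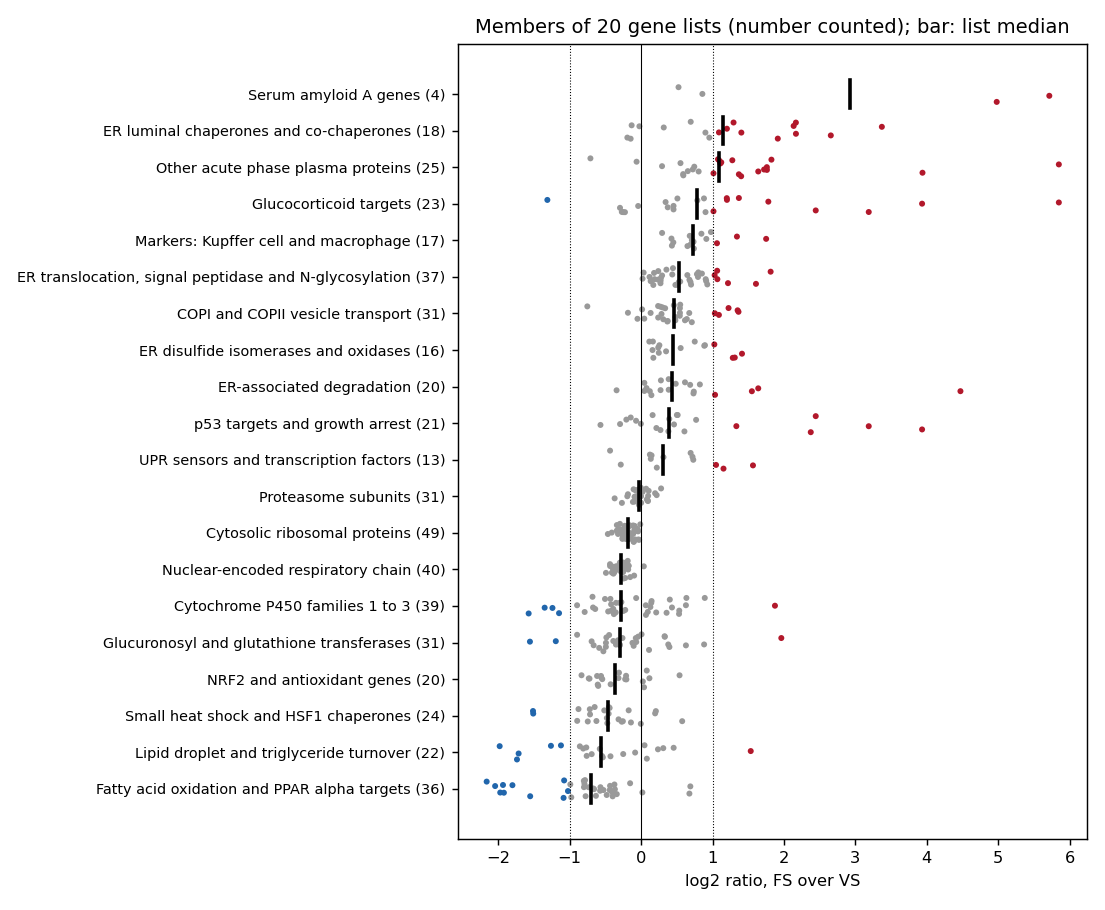
Log2 ratio of FS over VS (horizontal axis) for every counted member of 20 gene lists, with the number counted beside each name, 1 point per gene and a black bar at the list median. Points beyond the dotted lines at -1 and 1 are coloured, and serum amyloid A, ER chaperones and acute phase proteins sit at the top while lipid droplet and fatty acid oxidation genes sit at the bottom.

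Genes of the ER were higher in FS across 5 separate lists. In 5 lists joined (chaperones, disulfide isomerases, degradation, import with N-glycosylation, and vesicle transport), 29 of 122 counted genes were more than 2-fold higher in FS, or 23.8% beside 2.27% of all counted genes, and 0 were more than 2-fold lower. Their median ratio was 0.53, and 114 of the 122 lay above 0. The list of ER chaperones and co-chaperones had the highest median of these lists, 1.15, with 10 of 18 counted members higher by more than 2-fold and 0 lower. Lists of UPR sensors and of ATF4 targets, given below, were not joined, and the latter held 2 genes more than 2-fold lower. All lists were chosen with earlier results of these data known.

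Hspa5 (ENSMUSG00000026864, chr2:34771970-34776531, plus strand), the ER Hsp70 chaperone also called BiP, had 308 CPM in VS and 1161 CPM in FS, a ratio of 1.91 (1.88 to 1.95). Its levels were 430.3 CPM in VI and 823 CPM in FI, so both fibril libraries lay above both vehicle libraries. Hyou1, a large Hsp70 that exchanges the nucleotide of BiP, had 59.96 CPM in VS and 264 CPM in FS, a ratio of 2.14 (2.05 to 2.22). Sdf2l1, a partner of BiP with ER DnaJ proteins, had the largest ratio of the chaperones, 3.37 (3.14 to 3.62), with 6.73 CPM in VS and 69.8 CPM in FS. Creld2, a disulfide isomerase-like ER protein, had 23.9 CPM in VS and 151 CPM in FS, a ratio of 2.66 (2.53 to 2.79). Manf, a secreted ER stress factor that binds BiP, was higher in FS by a ratio of 2.17 (2.07 to 2.27), at 42.98 CPM in VS and 193 CPM in FS. The ER Hsp90 protein Hsp90b1 had 229 CPM in VS and 526 CPM in FS, a smaller ratio of 1.202 (1.16 to 1.25) on a higher base. Among the ER DnaJ proteins, Dnajb11 had a ratio of 1.404 (1.304 to 1.51) and Dnajb9 one of 1.29 (1.18 to 1.41). Dnajb9 was level in the trained pair, at 57.3 CPM in VI and 55.97 CPM in FI, unlike Dnajb11 at 58.99 and 108 CPM.

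The promoter windows of 14 counted genes held the ER stress element, ERSE, and are shown here because the element is the known binding site through which ATF6 acts with NF-Y at UPR genes. The windows ran from 250 bases before to 50 bases after each gene start (RefSeq, GRCm38.p6), and both strands were searched for CCAAT followed after 9 bases of any kind by CCACG. The 10 stretches below come from 9 genes of the ER, with the element in capitals and read in the element's direction, on the strand given.
Calr, chr8:84847063-84847105, plus strand: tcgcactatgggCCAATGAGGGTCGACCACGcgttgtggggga
Canx, chr11:50325788-50325830, minus strand: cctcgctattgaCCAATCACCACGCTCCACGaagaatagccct
Creld2, chr15:88819508-88819550, minus strand: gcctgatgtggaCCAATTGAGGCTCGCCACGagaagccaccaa
Derl3, chr10:75893230-75893272, minus strand: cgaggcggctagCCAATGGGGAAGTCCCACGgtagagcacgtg
Dnajc3, chr14:118937815-118937857, plus strand: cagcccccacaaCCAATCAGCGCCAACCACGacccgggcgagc
Hsp90b1, chr10:86705521-86705563, plus strand: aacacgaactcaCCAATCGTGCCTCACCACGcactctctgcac
Hsp90b1, chr10:86705626-86705668, minus strand: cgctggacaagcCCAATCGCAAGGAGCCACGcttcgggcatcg
Hspa5, chr2:34772013-34772055, plus strand: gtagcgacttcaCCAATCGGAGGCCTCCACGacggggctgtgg
Pdia6, chr12:17266479-17266521, plus strand: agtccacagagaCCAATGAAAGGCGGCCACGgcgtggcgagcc
Syvn1, chr19:6046520-6046562, plus strand: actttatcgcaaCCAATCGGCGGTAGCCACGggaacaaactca
The element of Creld2 is also the single one of Alg12, a mannosyltransferase of N-glycan synthesis that starts on the other strand, and Alg12 had 3.39 CPM in VS and 8.81 CPM in FS, a ratio of 1.37 (1.01 to 1.76). ERSE letters were found for 7 of the 150 higher genes with a window (4.67%), for 0 of the 78 lower genes, and for 0.201% of counted genes and 0.137% of all 27025 genes with a window. The 7 higher genes were Hspa5, Hsp90b1, Creld2, Alg12, Derl3, Pdia6 and Syvn1. Of these, Creld2 and Alg12 hold the same element, and Derl3 and Alg12 reached 5 CPM in FS alone. With the element in only 14 of 6962 counted genes with a window, the 0 among lower genes says little. The motifs were chosen with earlier results of these data known, so the shares are a description only. Ratios of Calr (0.96, 0.92 to 0.99) and Dnajc3 (0.901, 0.85 to 0.95) lay just under 2-fold, and that of Canx was 0.32 (0.27 to 0.37). The other holders were Acacb (-0.062, -0.198 to 0.074), Acnat2 (0.38, 0.31 to 0.45), Hnrnpa3 (0.34, 0.27 to 0.42) and Pan2 (0.031, -0.12 to 0.18), so the letters were also present in genes at level values. The other 12 motifs searched were shared by at most 12% of the higher genes, and none stood at more than 3.14 percentage points above all counted genes. They were ERSE-II, which is ATTGG followed after 1 base by CCACG (0.667% of higher and 0.115% of counted genes), the UPRE TGACGTGG (2% and 1.09%) and a STAT core, TTC followed after 3 bases by GAA (11.3% and 8.16%). The rest were a C/EBP and ATF composite (TGATGCAA), a C/EBP site (TTGCGCAA), a single nuclear receptor site (TGACCT), its direct repeat (AGGTCA repeated after 1 base), an NF-kB site (GGGAC directly before TTTCC), an E-box (CACGTG), a longer STAT site (TTCTTAGAA), a glucocorticoid response element (AGAACA followed after 3 bases by TGTTCT) and an amino acid response element (ATTGCATCA). The single site lies within the direct repeat, read on the other strand, and every longer STAT site also matches the STAT core. Gaps in percentage points are small for rare motifs even where shares differ several-fold, as for ERSE-II, which 1 higher gene held. The C/EBP and ATF composite was found for 2% of higher, 2.56% of lower and 0.733% of counted genes. A match of letters is a description of the window, and binding was not measured.

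All 16 counted disulfide isomerases and oxidases had ratios above 0, with a median of 0.45 and 4 members beyond 2-fold. Pdia4 had 104 CPM in VS and 277 CPM in FS, a ratio of 1.41 (1.35 to 1.48), and Pdia6 had 158 CPM in VS and 322 CPM in FS, a ratio of 1.03 (0.97 to 1.08). The ER oxidase gene Ero1lb, which reoxidises the isomerases, was at 13.6 CPM in VS and 33.1 CPM in FS, a ratio of 1.28 (1.102 to 1.47). In ER-associated degradation, which returns misfolded proteins to the cytosol for the proteasome, 4 of 20 genes were higher by more than 2-fold and 19 had ratios above 0 (median 0.44). Derl3 (ENSMUSG00000009092, chr10:75893398-75895941, plus strand), a derlin of the retrotranslocation channel, had 18 counts in VS and 512 in FS, which are 0.762 CPM in VS and 17.3 CPM in FS, a ratio of 4.47 (3.83 to 5.27). Syvn1, the ubiquitin ligase Hrd1 of the same channel, had 53.3 CPM in VS and 166 CPM in FS, a ratio of 1.64 (1.55 to 1.73), and its partner Sel1l a ratio of 0.82 (0.75 to 0.901). The ER mannosidase-like gene Edem3, which marks glycoproteins for disposal, had a ratio of 1.04 (0.87 to 1.201). Herpud1, another degradation gene and one of the most abundant, differed little, with 683 CPM in VS and 755 CPM in FS. The proteasome itself lay near 0: none of 31 subunit genes lay beyond 2-fold and the median was -0.029.

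Each of the 37 counted genes of ER import, signal peptide removal and N-glycosylation was higher in FS, with a median ratio of 0.53 and 6 beyond 2-fold. Gfpt1, the first enzyme of the hexosamine pathway that supplies sugar nucleotides, had 12.6 CPM in VS and 38.5 CPM in FS, a ratio of 1.61 (1.42 to 1.799). Gmppb, which makes GDP-mannose, had 4.66 CPM in VS and 16.4 CPM in FS, a ratio of 1.81 (1.52 to 2.13). Uggt1, the glucosyltransferase that senses misfolded glycoproteins, had 31.8 CPM in VS and 66.7 CPM in FS, a ratio of 1.07 (0.95 to 1.19). The signal peptidase subunit Spcs3 had a ratio of 1.06 (0.96 to 1.17). In the trained pair, 30 of these 37 genes lay above 0, with a lower median of 0.15. Of 31 COPI and COPII genes, which form the vesicles between ER and Golgi, 5 were beyond 2-fold on the higher side and 28 had ratios above 0 (median 0.46). Sec23b of the COPII coat had 16.8 CPM in VS and 43.2 CPM in FS, a ratio of 1.36 (1.201 to 1.53). The exception of some size was Sar1b, the GTPase that starts COPII coats for lipoproteins, at 234 CPM in VS and 139 CPM in FS, a ratio of -0.75 (-0.81 to -0.69).

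The sensors and transcription factors of the UPR differed less than the genes above, with 3 of 13 beyond 2-fold and a median of 0.31. Xbp1, whose mRNA is spliced by IRE1, had 154 CPM in VS and 253 CPM in FS, a ratio of 0.72 (0.66 to 0.78), and gene-level counts do not separate its spliced form. Atf6 had a ratio of 0.69 (0.59 to 0.803) and Eif2ak3, which codes for PERK, one of 1.05 (0.85 to 1.25). Creb3l2, a membrane-bound factor related to ATF6, had 12.4 CPM in VS and 36.8 CPM in FS, a ratio of 1.57 (1.38 to 1.76), but was level in the trained pair at 18.1 CPM in VI and 17.9 CPM in FI. On the PERK side, Atf4 was at 106 CPM in VS and 116 CPM in FS and Ddit3, which codes for the proapoptotic factor CHOP, at 9.02 CPM in VS and 9.99 CPM in FS, a ratio of 0.15 (-0.11 to 0.41). Among 23 counted ATF4 and integrated stress response targets, 4 were higher by more than 2-fold and 2 lower, with a median of 0.21. The higher ones were Ddit4, Trib3 (1.25, 0.99 to 1.52), Chac1 (1.29, 0.92 to 1.68) and Wars (1.02, 0.82 to 1.22), and the lower ones were Fgf21 (-1.93, -2.403 to -1.498) and the lipoprotein receptor gene Vldlr (-1.095, -1.296 to -0.898). Against VI in place of VS, the median of the ER chaperones was 0.82 and that of the import and glycosylation genes 0.48.

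**Figure D3:**
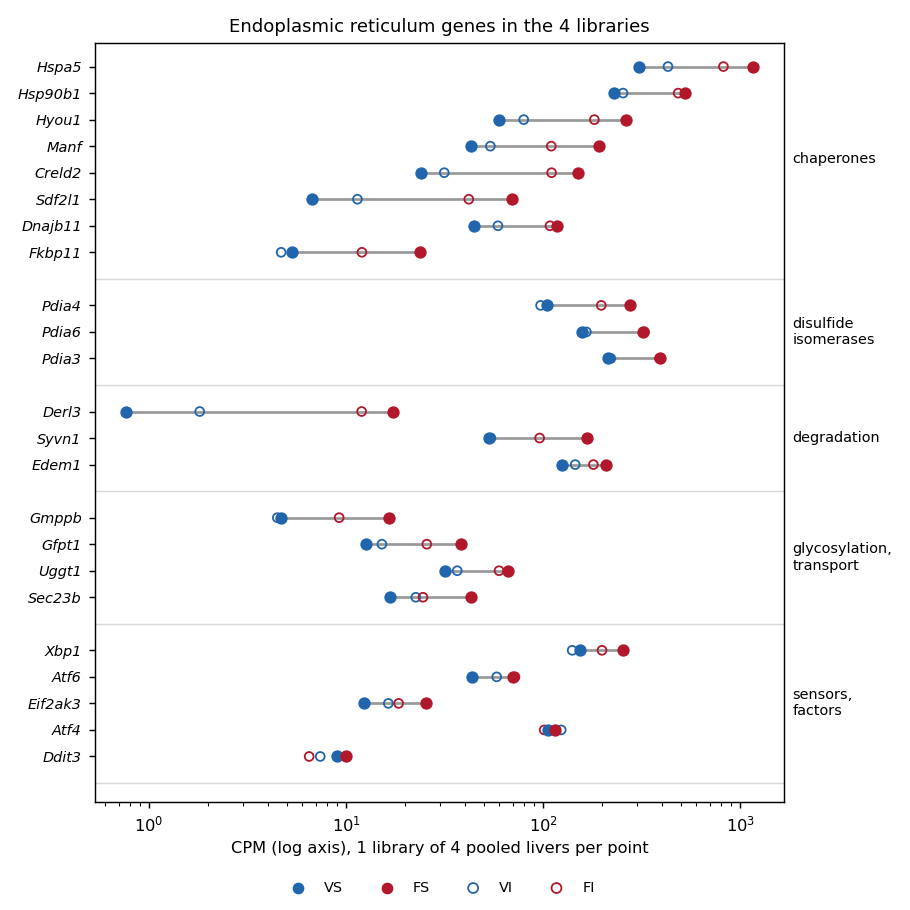
CPM (horizontal log axis) of 23 ER genes in the 4 libraries, 1 point per library of 4 pooled livers, with a grey line from VS (filled blue) to FS (filled red) and open circles for VI (blue) and FI (red). FS is the highest library for most of the genes above the bottom group, while Atf4 and Ddit3 have their libraries close together.

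Acute phase genes had the largest single differences. Of 25 counted acute phase plasma protein genes outside the serum amyloid A family, 15 were higher in FS by more than 2-fold and 0 lower. The shares of all counted genes were 2.27% and 1.29%, and the list had a median ratio of 1.09. Against VI in place of VS, 7 of 25 were higher by more than 2-fold and 0 lower. Lcn2 (ENSMUSG00000026822, chr2:32384633-32387797, minus strand), which codes for the iron siderophore-binding lipocalin 2, had 6.35 CPM in VS and 367 CPM in FS, the highest ratio of all counted genes at 5.85 (5.62 to 6.09). It was at 36.5 CPM in VI and 549 CPM in FI. Orm2, an alpha-1-acid glycoprotein, had 9.697 CPM in VS and 149 CPM in FS, a ratio of 3.94 (3.75 to 4.14), beside 1.76 (1.73 to 1.796) for Orm1 and 1.401 (1.22 to 1.59) for Orm3, 3 similar genes among which reads may be split. Apcs, which codes for serum amyloid P, which binds to amyloid deposits, had 308 CPM in VS and 1090.2 CPM in FS, a ratio of 1.82 (1.79 to 1.86). Its level in the trained pair was 584 CPM in VI and 798 CPM in FI. Serpina3n, a protease inhibitor with close copies, had 827 CPM in VS and 2578 CPM in FS, a ratio of 1.64 (1.62 to 1.66). The heme carrier hemopexin (Hpx) was at 3799 CPM in VS and 8015 CPM in FS, a ratio of 1.08 (1.07 to 1.09). Both metallothionein genes were higher, Mt2 by 1.37 (1.35 to 1.39) and Mt1 by 1.01 (0.99 to 1.03). Lrg1, a leucine-rich acute phase glycoprotein, had 229 CPM in VS and 917 CPM in FS, a ratio of 2.001 (1.96 to 2.04).

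The serum amyloid A genes, whose proteins travel on HDL, split into 2 strongly and 2 weakly different members. Saa1 (ENSMUSG00000074115, chr7:46740501-46742980, minus strand) had 29.98 CPM in VS and 945 CPM in FS, a ratio of 4.98 (4.87 to 5.09), and its near-identical neighbour Saa2 had 9.95 CPM in VS and 523 CPM in FS, a ratio of 5.71 (5.53 to 5.91), with reads that the counting may divide between them. Saa4, the constitutive member, had 364 CPM in VS and 659 CPM in FS, a ratio of 0.86 (0.82 to 0.89), and Saa3 had 7.83 CPM in VS and 11.3 CPM in FS, a ratio of 0.52 (0.26 to 0.79). The vehicle libraries were unlike each other here, with Saa1 at 155 CPM in VI.

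All 3 fibrinogen chains were higher in FS at high abundance. Fgb was at 3982 CPM in VS and 9689 CPM in FS, Fga at 3891 CPM in VS and 9081 CPM in FS and Fgg at 3211 CPM in VS and 7502 CPM in FS, with ratios of 1.28 (1.27 to 1.29), 1.22 (1.21 to 1.23) and 1.22 (1.21 to 1.24). These were the 3 members beyond 2-fold among 23 coagulation and fibrinolysis genes, whose median was 0.069. Of 28 complement genes, 22 had ratios above 0 but only C8a, a chain of the membrane attack complex, passed 2-fold, at 229 CPM in VS and 504 CPM in FS (1.14, 1.09 to 1.18). The complement median was 0.39 against VS and 0.084 against VI. Cytokine signalling genes of the liver included 4 of 22 beyond 2-fold: Socs3, the feedback inhibitor of STAT3 signalling, at 9.53 CPM in VS and 27.4 CPM in FS (1.52, 1.31 to 1.74), the interleukin 1 receptor Il1r1 (1.45, 1.35 to 1.56), the leptin receptor Lepr (1.44, 1.26 to 1.63) and the transcription factor Cebpd (1.202, 0.97 to 1.44). Stat3 itself had 134 CPM in VS and 210.3 CPM in FS, a ratio of 0.65 (0.59 to 0.72).

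Plasma proteins that fall in inflammation were mixed, with 1 of 13 higher and 1 lower beyond 2-fold (median -0.13). Serpina6, which codes for corticosteroid-binding globulin, had 1225 CPM in VS and 494 CPM in FS, a ratio of -1.31 (-1.34 to -1.28), and the intestinal-type apolipoprotein gene Apoa4 had 55.3 CPM in VS and 163 CPM in FS, a ratio of 1.56 (1.47 to 1.65). Apoa2 (ENSMUSG00000005681, chr1:171225054-171226379, plus strand), the gene of the amyloid protein, was at 8482 CPM in VS and 5451 CPM in FS, a ratio of -0.64 (-0.65 to -0.63). FI, at 5627 CPM, also lay below VI, at 6584 CPM, and both fibril libraries were below both vehicle libraries. Transthyretin (Ttr) had a ratio of -0.21 (-0.22 to -0.201). Among iron genes, the hepcidin copy Hamp2 was at 168 CPM in VS and 82.9 CPM in FS (-1.02, -1.09 to -0.94) and Hfe2, the hemojuvelin coreceptor that drives hepcidin, at 71.6 CPM in VS and 37.6 CPM in FS (-0.93, -1.04 to -0.82).

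Markers of macrophages moved with the acute phase genes. All 17 counted Kupffer cell and macrophage markers (of 24 listed) had ratios above 0, with a median of 0.72 and 3 beyond 2-fold, and the summed level of all 24 was 465 CPM in VS against 768 in FS, and 550.3 in VI against 809.6 in FI. Clec4f, a lectin of Kupffer cells, had 93.5 CPM in VS and 126 CPM in FS (0.43, 0.36 to 0.51), Csf1r, the receptor of their growth factor, 24.8 CPM in VS and 40.04 CPM in FS (0.69, 0.55 to 0.84), and the haptoglobin-hemoglobin receptor Cd163 9.02 CPM in VS and 22.9 CPM in FS (1.34, 1.12 to 1.57). Cd9, a tetraspanin that other cells express too, had 9.104 CPM in VS and 30.7 CPM in FS (1.75, 1.54 to 1.97). In bulk tissue, more cells of a type and more RNA per cell cannot be told apart, and the part of these cells in the acute phase levels was not tested. Endothelial markers went the other way at a small size, with 12 of 14 below 0 and a median of -0.25, but the median was -0.051 against VI. Stellate cell and fibroblast markers had a median of -0.13 over 14 genes. These include Des, which is also among the muscle genes set aside. Its ratio of -1.12 was the lowest of the list and the single one beyond 2-fold.

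Neutrophil markers were scarce apart from a pair that stood out, Lcn2 and Prtn3. Prtn3, which codes for proteinase 3 of neutrophil granules, had 14 counts in VS and 387 in FS, which are 0.593 CPM in VS and 13.1 CPM in FS, a ratio of 4.42 (3.703 to 5.35). The other granule genes did not reach 5 CPM: S100a8 was at 0.889 CPM in VS and 2.202 CPM in FS, Elane at 0.127 CPM in VS and 0.169 CPM in FS, Mpo at 1 count in FS and none in VS, and Ctsg at 0 in both. Of 5 counted B lineage and plasma cell markers, the joining chain of IgA and IgM (Igj) was beyond 2-fold, at 3.13 CPM in VS and 6.61 CPM in FS (1.07, 0.68 to 1.48), and Igha was at 7.62 CPM in VS and 14.8 CPM in FS (0.95, 0.7004 to 1.21). Igj and Prtn3 reached 5 CPM in FS alone. None of 16 T and NK cell markers reached 5 CPM, and their summed level was 5.42 CPM in VS and 5.56 CPM in FS. Cxcl1, a chemokine that attracts neutrophils, had 6.82 CPM in VS and 47.997 CPM in FS, a ratio of 2.81 (2.58 to 3.06), the single chemokine gene beyond 2-fold among 6 counted. No interferon-stimulated gene of 21 and no antigen presentation gene of 8 lay beyond 2-fold, with medians of 0.26 and 0.17. Collagens and other matrix genes lay on both sides of 0 (median -0.085 over 20 genes), with 5 counting intervals wholly above and 6 wholly below. The fibrillar collagen gene Col27a1 was the single one beyond 2-fold, lower at 46.8 CPM in VS and 14.1 CPM in FS (-1.73, -1.901 to -1.57). Above 0 at a smaller size were, among others, the basement membrane collagen genes Col4a1 (0.601, 0.38 to 0.83) and Col4a2 (0.502, 0.22 to 0.79), the fibronectin gene Fn1 (0.48, 0.46 to 0.504) and the membrane protease Mmp14 (0.66, 0.54 to 0.79).

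Genes of growth arrest and of the response to glucocorticoids, adrenal hormones that raise glucose and amino acid breakdown in liver, were among the highest single ratios. Of 23 counted glucocorticoid targets, 9 were higher by more than 2-fold and 1 lower, beside 2.27% and 1.29% of all counted genes. Against VI in place of VS, 2 of 23 were higher by more than 2-fold and 0 lower. The list shares Lcn2 and the metallothioneins with the acute phase. Ddit4, an inhibitor of mTORC1, had 3.599 CPM in VS and 55.3 CPM in FS, a ratio of 3.93 (3.63 to 4.27). Gadd45g, a stress sensor of the Gadd45 family, had 6.65 CPM in VS and 60.7 CPM in FS (3.19, 2.95 to 3.44). Cdkn1a, the cell cycle inhibitor p21, had 5.63 CPM in VS and 30.8 CPM in FS (2.44, 2.19 to 2.72), but VI stood at 35.4 CPM, above FS. Btg2, an antiproliferative target of p53, had 9.19 CPM in VS and 47.8 CPM in FS (2.37, 2.17 to 2.59), with VI at 13.5 CPM. Tat, the tyrosine aminotransferase and a classical glucocorticoid target, had 938 CPM in VS and 3226 CPM in FS (1.78, 1.76 to 1.802). Zbtb16, a transcription factor induced by glucocorticoids, had 15.8 CPM in VS and 36.4 CPM in FS (1.1998, 1.03 to 1.37). The median of the list was 0.79 against VS and 0.298 against VI.

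The p53 list had 5 of 21 counted genes beyond 2-fold on the higher side, Ddit4, Gadd45g, Cdkn1a and Btg2 as given above and Trp53inp1, at 61.7 CPM in VS and 156 CPM in FS (1.33, 1.25 to 1.42). Trp53 itself was at 17.2 CPM in VS and 14.9 CPM in FS, a ratio of -0.21 (-0.404 to -0.0074). In the p38 cascade, the single gene beyond 2-fold of 12 was the phosphatase gene Dusp8, at 0.805 CPM in VS and 5.01 CPM in FS (2.61, 1.95 to 3.41), and Mapk14, which codes for p38 alpha, was at 81.9 CPM in VS and 63.7 CPM in FS (-0.36, -0.46 to -0.27). Dusp8 reached 5 CPM in FS alone, and 6 of the 18 listed genes of the cascade were not counted. Among 21 immediate early genes, Btg2 alone passed 2-fold. Other genes with very high ratios were Nnmt, the nicotinamide N-methyltransferase, at 3.98 CPM in VS and 74.2 CPM in FS (4.21, 3.92 to 4.53), the magnesium transporter Slc41a2, at 5.51 CPM in VS and 45.7 CPM in FS (3.05, 2.79 to 3.32), and Cyb561, a cytochrome of ascorbate recycling, at 1.14 CPM in VS and 10.1 CPM in FS (3.11, 2.57 to 3.76). Egfr, the epidermal growth factor receptor, had 47.3 CPM in VS and 236 CPM in FS (2.32, 2.23 to 2.41), with VI at 114 CPM and FI at 234 CPM.

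Cytosolic chaperones went opposite to those of the ER. These are the targets of HSF1, the heat shock factor, and 21 of 24 had ratios below 0, with a median of -0.46 and 2 more than 2-fold lower. Hspa1b, an inducible Hsp70, had 49.5 CPM in VS and 17.3 CPM in FS, a ratio of -1.51 (-1.67 to -1.36). Hspb1 (ENSMUSG00000004951, chr5:135887919-135889563, plus strand), the small heat shock protein Hsp27, had 13.7 CPM in VS and 4.81 CPM in FS, a ratio of -1.51 (-1.81 to -1.22). Hspa8, the constitutive Hsc70, was at 1153 CPM in VS and 703 CPM in FS (-0.71, -0.74 to -0.69), Hsp90ab1 at 957 CPM in VS and 582 CPM in FS (-0.72, -0.75 to -0.69), and Fkbp4, a cochaperone of Hsp90, at 208 CPM in VS and 112 CPM in FS (-0.89, -0.96 to -0.83). The difference depended on the vehicle library: against VI the median of the list was -0.014, and 14 of the 24 genes were higher in FI than in VI, with a median of 0.056. Hspb1 was at 6.69 CPM in VI and 22.2 CPM in FI. Cryab, another small heat shock protein with high levels in muscle, stayed under 5 CPM, at 3.599 CPM in VS and 1.76 CPM in FS. Muscle genes were higher in VS, and the part of muscle RNA in the VS levels of Hspb1 and Cryab was not tested.

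**Figure D4:**
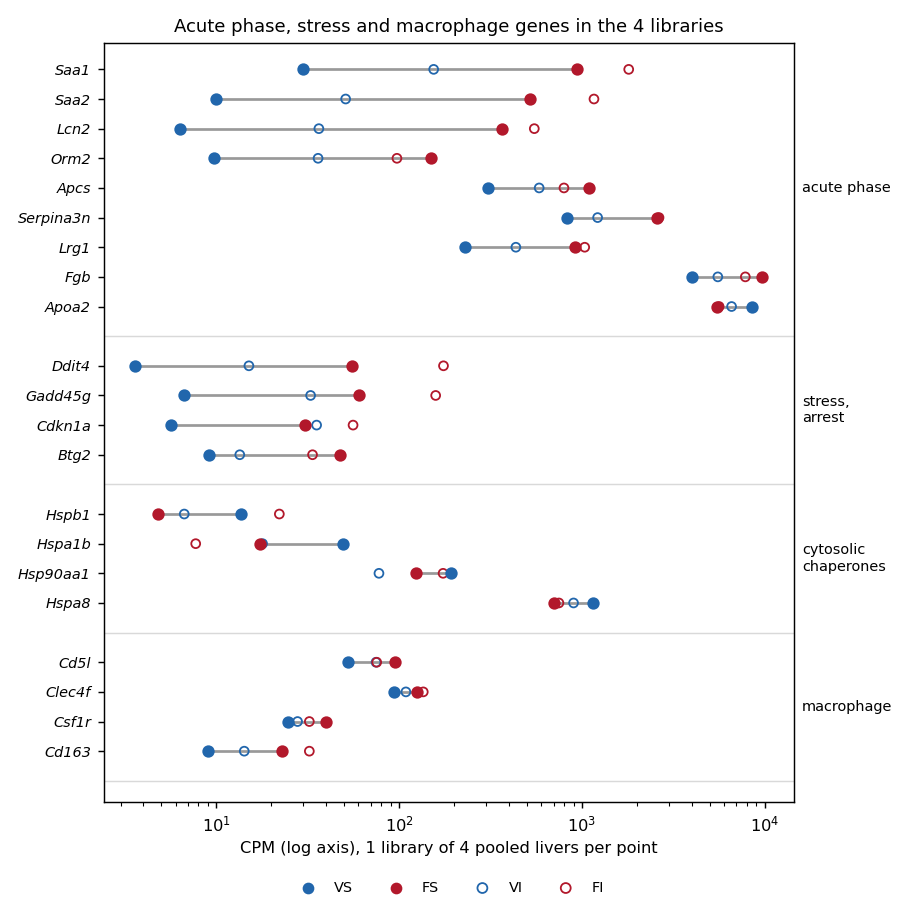
CPM (horizontal log axis) of 21 acute phase, stress, chaperone and macrophage genes in the 4 libraries, drawn as in the plot of ER genes. VS is the lowest library for nearly all acute phase and stress genes, VI lies between VS and FS for most of them, and the cytosolic chaperones have VS at or near the top.

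On the lower side, fatty acid oxidation held the most genes of any list. PPAR alpha is the nuclear receptor that turns on the burning of fatty acids in mitochondria and peroxisomes, and of 36 counted genes of this list, 10 were more than 2-fold lower, 0 were higher, and 33 had ratios below 0. The share beyond 2-fold stands beside 1.29% of all counted genes, and the median was -0.701. The acyl-CoA thioesterase genes, which release free fatty acids from CoA, were prominent: Acot1 (ENSMUSG00000072949, chr12:84009502-84017670, plus strand) had 342 CPM in VS and 83.1 CPM in FS (-2.04, -2.11 to -1.98), Acot3 183 CPM in VS and 46.6 CPM in FS (-1.97, -2.06 to -1.88) and Acot2 54.5 CPM in VS and 15.6 CPM in FS (-1.8003, -1.96 to -1.65). These are neighbouring copies of high similarity, so reads may be divided between them. Acaa1b, a peroxisomal thiolase and the most abundant of the group, had 2994 CPM in VS and 791 CPM in FS (-1.92, -1.94 to -1.899), and its sister Acaa1a 784 CPM in VS and 372 CPM in FS (-1.08, -1.11 to -1.04). Pdk4, the kinase that stops pyruvate oxidation, had 25.96 CPM in VS and 5.79 CPM in FS (-2.16, -2.42 to -1.92). The omega-hydroxylase Cyp4a10 was at 1916 CPM in VS and 904 CPM in FS (-1.08, -1.11 to -1.06) and the pantetheinase Vnn1 at 55.6 CPM in VS and 18.97 CPM in FS (-1.55, -1.698 to -1.41).

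Core enzymes of the pathway differed less. The bifunctional peroxisomal enzyme Ehhadh was at 824 CPM in VS and 415 CPM in FS (-0.99, -1.02 to -0.96), medium-chain acyl-CoA dehydrogenase (Acadm) at 856 CPM in VS and 542 CPM in FS (-0.66, -0.69 to -0.63), and the entry enzyme Cpt1a at 438 CPM in VS and 394 CPM in FS (-0.15, -0.19 to -0.12). Ppara, the receptor gene, had 81.2 CPM in VS and 61.6 CPM in FS (-0.398, -0.49 to -0.305). Fgf21, a hormone of fasting under PPAR alpha control, had 7.28 CPM in VS and 1.897 CPM in FS (-1.93, -2.403 to -1.498). The trained pair differed by gene here: Pdk4 was at 50.98 CPM in VI and 44.5 CPM in FI and Acot1 at 361 and 297 CPM, both close, whereas Acaa1b was at 1949 and 933 CPM. The list median was -0.204 for FI over VI and -0.53 for FS over VI.

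Lipid droplet and triglyceride genes included 5 of 22 lower and 1 higher by more than 2-fold, with a median of -0.56. G0s2, an inhibitor of adipose triglyceride lipase, had 117 CPM in VS and 29.6 CPM in FS (-1.98, -2.09 to -1.87), but VI stood at 35.1 CPM, close to FS. Ces1d, an abundant carboxylesterase that hydrolyses triglyceride, had 2467 CPM in VS and 740.3 CPM in FS (-1.74, -1.76 to -1.71), with VI at 2544 CPM and FI at 1034 CPM. Lpl, lipoprotein lipase, was the higher one, at 12.2 CPM in VS and 35.3 CPM in FS (1.53, 1.35 to 1.73). Fitm1, also listed here, and Ankrd23, both expressed in muscle but not among the genes set aside, had 5.59 CPM in VS and 1.69 CPM in FS and 5.72 CPM in VS and 1.49 CPM in FS. In lipogenesis, the desaturase Fads2 alone of 20 genes passed 2-fold, at 434 CPM in VS and 192 CPM in FS (-1.18, -1.23 to -1.13), while Srebf1, the lipogenic factor, was at 284 CPM in VS and 165 CPM in FS (-0.78, -0.84 to -0.73) and Scd1, the stearoyl-CoA desaturase, at 1249.5 CPM in VS and 2181 CPM in FS (0.803, 0.78 to 0.82). Cholesterol synthesis genes lay within 2-fold (median -0.027 over 25) except for the squalene epoxidase Sqle, at 9.02 CPM in VS and 22.2 CPM in FS (1.298, 1.08 to 1.53). Against VI their median was 0.52.

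Among glucose and amino acid genes, those higher by more than 2-fold included Igfbp1, an insulin-repressed binding protein of IGF, at 154 CPM in VS and 585 CPM in FS (1.92, 1.87 to 1.98), the aspartate aminotransferase Got1, at 86.6 CPM in VS and 376 CPM in FS (2.12, 2.05 to 2.19), the serine dehydratase Sds, at 54.6 CPM in VS and 114 CPM in FS (1.06, 0.97 to 1.16), and the glycolytic regulator Pfkfb3, at 5.59 CPM in VS and 20.9 CPM in FS (1.901, 1.63 to 2.19). VI stood at 454 CPM for Got1, above FS, and at 533 CPM for Igfbp1. G6pc, the glucose-6-phosphatase of gluconeogenesis, was at 206 CPM in VS and 181 CPM in FS (-0.19, -0.24 to -0.13), and the coactivator gene Ppargc1a at 10.97 CPM in VS and 17.5 CPM in FS (0.68, 0.46 to 0.899). Of 40 amino acid catabolism genes, 3 were higher and 1 lower beyond 2-fold (median -0.026). The urea cycle list had 1 such gene, the amino acid transporter Slc38a2 (1.12, 1.06 to 1.18), and its enzymes Ass1 and Arg1 had ratios of 0.79 (0.77 to 0.81) and 0.698 (0.67 to 0.72).

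Detoxification genes were lower on balance. Of 39 counted cytochrome P450 genes of families 1 to 3, 4 were more than 2-fold lower and 1 higher, with a median of -0.28. Cyp2a5, the coumarin hydroxylase, had 1643 CPM in VS and 696 CPM in FS (-1.24, -1.26 to -1.22), Cyp1a2, of caffeine metabolism, 349.6 CPM in VS and 158 CPM in FS (-1.15, -1.2001 to -1.096), and Cyp2e1, the ethanol-oxidising form, 11182 CPM in VS and 6011 CPM in FS (-0.896, -0.904 to -0.89). Cyp2b10, the main target of the receptor CAR, was the higher one, at 11.2 CPM in VS and 41.2 CPM in FS (1.87, 1.68 to 2.07), although Nr1i3, which codes for CAR, was lower, at 217 CPM in VS and 99.2 CPM in FS (-1.13, -1.19 to -1.06). Cytochrome P450 genes occur as close copies, so single values are uncertain. Glucuronosyl and glutathione transferases had a median of -0.297, with Gstm3 higher at 8.34 CPM in VS and 32.6 CPM in FS (1.96, 1.74 to 2.19) and Gsta2 lower at 30.5 CPM in VS and 10.4 CPM in FS (-1.56, -1.75 to -1.36). The sulfotransferase median of -0.45 turned to 0.22 against VI. NRF2 targets and antioxidant genes had 15 of 20 ratios below 0 and none beyond 2-fold (median -0.37), including glutathione peroxidase 1 (Gpx1) at 2842 CPM in VS and 1723 CPM in FS (-0.72, -0.74 to -0.71).

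**Figure D5:**
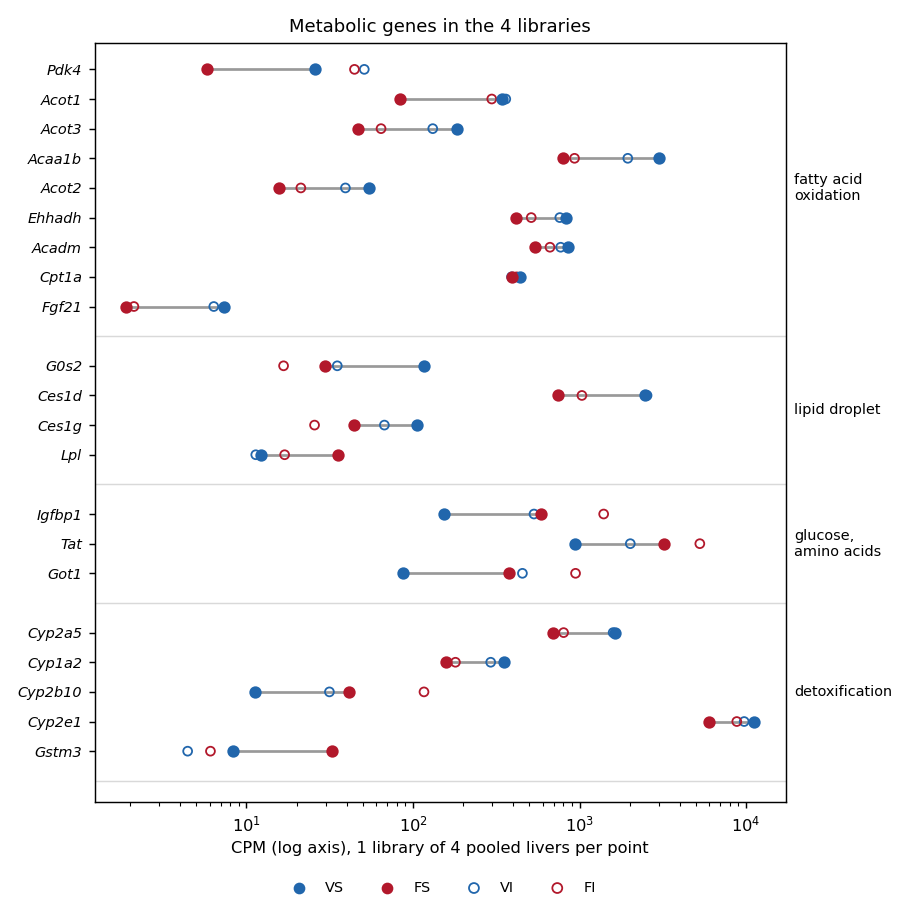
CPM (horizontal log axis) of 21 metabolic genes in the 4 libraries, drawn as in the plot of ER genes. FS lies left of VS for the fatty acid oxidation genes and right of VS for Lpl, Igfbp1, Tat, Got1, Cyp2b10 and Gstm3, and the trained pair is shifted for Pdk4.

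The list of bile acid synthesis and transport held no gene beyond 2-fold among 27, and its median of -0.23 was -0.069 against VI, with the sterol 12-alpha-hydroxylase Cyp8b1 at 209 CPM in VS and 146 CPM in FS (-0.52, -0.58 to -0.46). The major urinary proteins, near-identical copies among which reads may be split, had a median of -0.78 over 5 counted genes of 22 listed but of -0.092 against VI, and Mup3, the most abundant of them, was at 953 CPM in VS and 557 CPM in FS (-0.78, -0.804 to -0.75). Among clock genes, 4 of 25 were more than 2-fold lower and 1 higher. Among these, the repressors Per2 and Cry1 had ratios of -1.11 (-1.24 to -0.97) and -1.12 (-1.39 to -0.86), the kinase Wee1 -1.07 (-1.295 to -0.84), and the phosphatidate phosphatase Lpin1 1.95 (1.89 to 2.02). Other clock genes were closer, such as Dbp at 102 CPM in VS and 80.9 CPM in FS and Per1 at 75.4 CPM in VS and 73.3 CPM in FS. The median of the clock list was -0.14 against VS, 0.097 against VI and 0.17 for FI over VI. Against VI, 3 of 26 clock genes were higher and 4 lower by more than 2-fold. In the growth hormone and IGF axis, 3 of 17 genes were more than 2-fold higher (Egfr, Igfbp1 and Lepr, given above) and 0 lower, with a median of -0.13. Among members within 2-fold, Igfals, which carries IGF1 in plasma, was at 157 CPM in VS and 83.3 CPM in FS (-0.91, -0.99 to -0.84) and the receptor Ghr at 446 CPM in VS and 296 CPM in FS (-0.59, -0.63 to -0.55). Krt23 (ENSMUSG00000006777, chr11:99477974-99493137, minus strand), an acidic keratin, had the lowest ratio of all counted genes, -3.24 (-3.52 to -2.98), with 41.8 CPM in VS and 4.403 CPM in FS. It was at 16.3 CPM in VI and 13.2 CPM in FI. The hepatocyte keratins Krt8 and Krt18 had ratios of 0.46 (0.41 to 0.52) and 0.38 (0.32 to 0.44), and the bile duct markers Krt19 and Epcam stayed under 5 CPM.

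Short genes of large complexes shifted together by small amounts. Of 40 nuclear genes of the respiratory chain, 39 were lower in FS (median -0.27), and all 49 counted cytosolic ribosomal protein genes were lower (median -0.18), none of either list beyond 2-fold. Their median lengths were 1213 and 1043 bases, within the shortest group of genes, whose median ratio was -0.103. With the medians of length groups subtracted, the respiratory chain had a median of -0.21 and the ribosomal proteins -0.081. Cox4i1, a subunit of cytochrome oxidase, was at 379.9 CPM in VS and 286 CPM in FS (-0.41, -0.45 to -0.37). Transcripts of the mitochondrial genome differed less, with a median of -0.0903 over 11 genes. Lysosome and autophagy genes had a median of 0.042 over 34, with 11 counting intervals wholly above 0 and 14 wholly below. The autophagy gene Wipi1 was the single one beyond 2-fold, at 6.52 CPM in VS and 13.7 CPM in FS (1.07, 0.798 to 1.35), followed by the protease cathepsin L (Ctsl), at 509 CPM in VS and 1004 CPM in FS (0.98, 0.95 to 1.01).

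Ranked by their median, 742 Reactome sets with 10 to 300 counted genes were ordered as follows, as a description without a test. The unfolded protein response set was at the top (median 0.65, 12 of 13 genes above 0), followed by N-glycan trimming with the calnexin and calreticulin cycle (0.61), the initial triggering of complement (0.45), a set named for the activation of the interferon factors IRF3 and IRF7 (0.44), the complement cascade (0.43) and COPI transport (0.398). At the bottom were alpha-linolenic acid metabolism (-0.603), mitochondrial beta-oxidation (-0.48, all 15 genes below 0), bile acid synthesis through 27-hydroxycholesterol (-0.46), and the attenuation phase of the heat shock response (-0.45). The whole Reactome set of bile acid synthesis, which differs from the list above, had 2 of 23 genes more than 2-fold lower, Akr1c19 (-1.33, -1.44 to -1.21) and Cyp46a1 (-1.02, -1.31 to -0.74), both named after their values were seen.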

How the data were processed

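Liver RNA of 4 groups (VS, VI, FS and FI, 1 pooled library each) was analysed, and the report uses FS and VS with VI and FI beside them. The authors deposited raw counts of reads per gene, and FPKM values. The submitters' processing notes name fastp 0.23.2, STAR 2.5 and HTSeq 0.6.1 and the build mm10, and the annotation release is not stated there. Deposited FPKM equalled count over gene length and total count within 0.01% for all values above 0, and served in alternatives only. Of the listed genes, 70 symbols occur more than once and were joined by identifier, and strand use in counting is not stated, so antisense pairs are uncertain.

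Counts were scaled by TMM (edgeR 4.0.16, R 4.3.3), a prior of 0.5 counts was added for log2 ratios, and 95% intervals were exact conditional binomial (scipy 1.17.1). The intervals reflect counting error alone and treat each read as a separate count. Reads carry no molecular identifiers and copies of 1 molecule may count more than once, so the intervals may be too narrow even for counting error. With 1 library per group there was no test, and genes were counted beyond 2-fold. The steps were tested on simulated counts that held counting error alone. Variation between mice or pools was not simulated, so that test says nothing about it. Text names the 20 highest and 20 lowest ratios, up to 6 genes per list and 12 fixed genes, apart from predicted genes, with further list members chosen for their role after their values were seen. The 61 lists, the members and the motifs were chosen with earlier results of these data known. Reactome sets were taken from an R package and only ranked. Some genes that the naming rule covers are not reported here.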

Additional observations from a re-analysis of the deposited data

Results flagged for a closer look

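Hspb1, the small heat shock protein Hsp27, was the single counted gene that lay beyond 2-fold in both pairs with opposite directions. Its log2 ratio was -1.51 for FS over VS, from 13.7 to 4.81 CPM, and 1.72 for FI over VI, from 6.69 to 22.2 CPM. The difference between the pairs was not tested, since each group is 1 library. Muscle genes were higher in VS than in the other libraries, and the part of muscle RNA in the VS level of Hspb1 was not tested.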

How the results depend on the processing

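No paired analysis was possible because each group is 1 library, and for the same reason no replicate could be left out. The genes higher and lower in FS by more than 2-fold, 207 and 118, numbered 422 and 228 with a minimum of 1 CPM, 2479 and 2012 with no filter, 676 and 497 at a fold of 1.5, 127 and 75 with the whole interval beyond 2-fold, and 136 and 72 with FPKM and a pseudocount of 1. The other alternatives (DESeq2 size factors from DESeq2 1.42.0, total counts, TMM without muscle genes, 10 CPM, muscle genes kept in, FPKM with a pseudocount of 0.1) gave between 158 and 220 higher and between 94 and 127 lower genes. The 3 alternatives chosen after seeing the data, FS against VI, subtraction of length group medians and TMM over FS and VS alone, gave between 184 and 208 higher and between 97 and 120 lower genes. As a mean in place of a median, acute phase genes had 1.29, fatty acid oxidation -0.80 and glucocorticoid targets 1.06. Against VI, medians were 0.82 for ER chaperones, 0.59 for acute phase genes, -0.53 for fatty acid oxidation, -0.014 for HSF1 chaperones, 0.30 for glucocorticoid targets and 0.51 for macrophage markers. Of 34 lists with a median beyond 0.2, signs turned in sulfotransferases (0.22) and adipose markers (0.29) against VI, adipose markers at 10 CPM (0.20, 2 genes left) and B cell markers without a filter (-0.059); the cause was not tested. Other medians that shrank by over 1.5 times against VI were those of lipid droplet genes (-0.37), serum amyloid A (1.76), complement (0.084), p53 targets (0.16), p38 genes (0.0093), ATF4 targets (0.12), glucuronosyl and glutathione transferases (-0.17), hepatocyte transcription factors (-0.13), bile acid genes (-0.069), major urinary proteins (-0.092), and endothelial (-0.051) and erythroid (-0.14) markers. Of 129 named genes beyond 2-fold, 123 had the same sign against VI, 65 of them beyond 2-fold. Of all counted genes, 2.02% were higher and 0.897% lower in FS than in VI by more than 2-fold. The named genes were chosen by ratios that hold the same FS library, so a shared sign is partly built in. Depth limits genes near 5 CPM in FS or VS, where the interval is widest.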

Other observations

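Several of the most different genes belong to none of the gene lists. On the higher side were the kinase Alpk1, which senses bacterial sugars, at 0.847 CPM in VS and 5.39 CPM in FS, the interferon-inducible gene Ifi27l2b at 1.36 and 8.64 CPM, and Ccdc149 at 0.635 and 5.45 CPM. Ly6d, a lymphocyte antigen gene, had the same values as Alpk1 in VS and FS but was level in the trained pair, with a log2 ratio of -0.056 for FI over VI. On the lower side, the sterol-binding gene Osbpl5 was at 15.9 CPM in VS and 3.42 CPM in FS, the aspartic protease gene Ctse at 79.6 and 23.1 CPM, and Nrep at 18.4 and 4.403 CPM. Nrep was also lower in FI than in VI, with a log2 ratio of -2.24. Unc79, which belongs to a sodium leak channel complex, was at 11.6 CPM in VS and 2.1001 CPM in FS, and its log2 ratio of FI over VI was -1.25. The antisense transcript Dio3os was at 19.5 CPM in VS and 2.95 CPM in FS but had a log2 ratio of -0.32 in the trained pair, and reads of its partner on the other strand cannot be told apart here. Other genes do belong to lists that were not described above. Car3, carbonic anhydrase 3 of liver and fat and 1 of 3 counted adipose markers, was at 1377 CPM in VS and 630.1 CPM in FS, beside 517 CPM in VI and 395 CPM in FI. Of 6 counted cell cycle genes (29 listed), 1 was more than 2-fold lower and 0 higher, with a median of -0.021. The thymidine kinase gene Tk1, used in DNA synthesis, was the lower one, at 63.8 CPM in VS and 25.8 CPM in FS, while Pcna, the sliding clamp of replication, was at 23.2 and 28.3 CPM.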
